A study of Rattus norvegicus with 54 samples.

Results

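Pioglitazone was set against no ligand in the gastrocnemius, a calf muscle, of obese male Zucker rats. The comparison used 6 of the 54 arrays of the series, chosen by their sample labels: 3 muscle arrays of obese fa/fa rats given pioglitazone, and 3 muscle arrays of obese fa/fa rats on normal chow with no ligand, called untreated obese here. The fa allele is a missense change in the leptin receptor gene Lepr, so every obese rat, treated or not, has impaired leptin signalling. The other muscle groups were obese fa/fa rats given rosiglitazone, troglitazone or AG035029, and lean heterozygous fa/+ rats on normal chow, with 3 arrays each. The same 6 kinds of group were measured in epididymal adipose tissue and liver. Each array held RNA pooled from 2 rats, so 3 arrays stand for 6 rats, and the spread between arrays is that between pools. Doses, treatment times and ages are not in the labels.

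PPARgamma is a nuclear receptor that binds DNA as a partner of RXR and drives fat cell formation and fatty acid storage. It is abundant in fat cells and scarce in muscle fibres. Pioglitazone, rosiglitazone and troglitazone are thiazolidinediones, which activate it and raise the insulin sensitivity of the body, much of which is exercised in muscle. AG035029 is known here by its code name alone. Whole muscle also holds capillaries, nerve, connective tissue and fat cells between the fibres, and in such bulk RNA fewer cells of a type and less RNA per cell cannot be told apart.

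Values are MAS5 signals in arbitrary units, and changes are on the log2(signal + 20) scale, pioglitazone minus untreated obese unless another pair is named, with standard errors from limma after ±. Median signals of the 18 muscle arrays lay between 191 and 232.5 units. The 15 tested genes that define muscle fibres, such as the creatine kinase gene Ckm and the myoglobin gene Mb, summed to 301230 to 389180 units with pioglitazone and 356340 to 386830 units in untreated obese muscle. The same probe sets summed to 1140 to 1373 units in pioglitazone-treated adipose tissue, so the label of the tissue fits its defining genes. The 2 tested Lepr probe sets had adjusted p = 0.669 and 0.990, and a missense change need not alter a transcript, so they check no label.

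Among the genes with higher signals in pioglitazone muscle were Rbp7, Fabp4, Fabp5 and Gpihbp1, which bind lipids or anchor lipoprotein lipase, and Scd, Thrsp, Mgll and Pck1 of lipid metabolism. The change of Rbp7 had the smallest p. Of 9519 probe sets tested, 22 passed an adjusted p of 0.05, or 0.231%. Of these, 19 were higher with pioglitazone and 3 were lower, 0.2% and 0.0315% of the probe sets tested. They cover 17 named genes, 14 higher and 3 lower, and 1 unnamed probe set. The 3 pioglitazone and 3 untreated obese arrays did not overlap for any of the 22, against 11.4% of all probe sets tested. The 22 were called on these same arrays, so this lack of overlap is no separate result. The median change over all probe sets was -0.04, and 569 had an unadjusted p under 0.05. Calls of higher signal numbered 5 without pioglitazone replicate 1, 9 without pioglitazone replicate 3, and 10 and 9 without untreated obese replicates 1 and 3. Calls of lower signal numbered 1 without pioglitazone replicate 3.

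**Figure D1:**
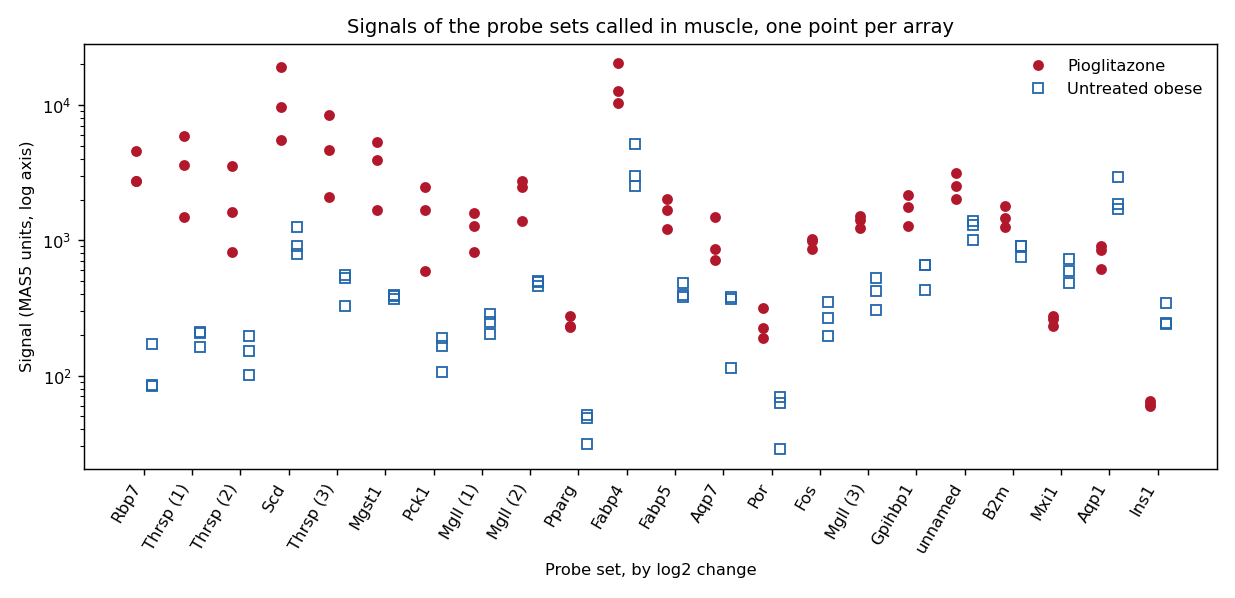
Signal in MAS5 units (log axis) of the 22 probe sets that passed the test, ordered by log2 change from left to right, with 1 point for each of the 3 pioglitazone arrays (filled circles) and the 3 untreated obese arrays (open squares). No probe set has overlapping groups. The spread among the pioglitazone arrays is wide for Thrsp, Scd, Mgst1 and Pck1, and narrow for Pparg, Fos and Ins1.

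Rbp7 encodes a small retinoid-binding protein of fat and capillary endothelium. Its signal was 4571, 2754 and 2758 units in the 3 pioglitazone arrays, against 85.6, 172 and 83.3 units in the untreated obese arrays. Every pioglitazone array was above every untreated one, and the change was 4.68 ± 0.39 (adjusted p = 1.7e-06). With each of the 6 arrays left out in turn it stayed between 4.44 and 4.97.

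Fabp5, the epidermal fatty acid-binding protein, had 2033, 1218 and 1684 units with pioglitazone, against 383, 487 and 396 units in untreated obese muscle. It rose by 1.89 ± 0.22 (adjusted p = 0.00025), and the groups lay well apart. Fabp4, the fatty acid-binding protein of fat cells and capillaries, had 20362, 12712 and 10370 units with pioglitazone, against 2537, 5139 and 2982 units in untreated obese muscle. It rose by 2.03 ± 0.32 (adjusted p = 0.0054), and leaving out pioglitazone replicate 1 ended this (adjusted p = 0.0617). Gpihbp1 encodes the capillary protein that anchors lipoprotein lipase. Its signals were 1767, 2157 and 1282 units with pioglitazone, against 428, 659 and 654 units in untreated obese muscle, a rise of 1.54 ± 0.23 (adjusted p = 0.0042). Unlike most of the probe sets that rose, it was highest on pioglitazone replicate 2. The list of fatty acid uptake and activation genes had 3 of 15 tested members higher, these Fabp5, Fabp4 and Gpihbp1, and none lower, with a median change of 0.61. Cd36, the fatty acid transporter, did not pass: it had 7000, 6859 and 3553 units with pioglitazone, against 2027, 5805 and 2460 units in untreated obese muscle (change 0.85, adjusted p = 0.71).

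The genes of lipid making and storage came next. Scd encodes the desaturase that makes monounsaturated fatty acids. Its signals were 19089, 5487 and 9697 units with pioglitazone, against 798, 915 and 1252 units in untreated obese muscle. All pioglitazone arrays were above all untreated ones, but they differed among themselves by up to 3.48-fold, and the change was 3.35 ± 0.55 (adjusted p = 0.0058, but 0.0727 without pioglitazone replicate 1). Thrsp, known as Spot 14 and linked to fatty acid synthesis, had 3 probe sets that rose by 3.91 ± 0.58, 3.37 ± 0.62 and 3.20 ± 0.58 (adjusted p = 0.0042, 0.0168 and 0.0154). The first of them read 5866, 1487 and 3613 units with pioglitazone, against 162, 210 and 205 units in untreated obese muscle. Mgll, the lipase that splits monoacylglycerol, also had 3 probe sets that rose, by 2.19 ± 0.27, 2.08 ± 0.34 and 1.71 ± 0.28 (adjusted p = 0.00035, 0.0054 and 0.0054). The first of these read 1595, 822 and 1269 units with pioglitazone, against 204, 248 and 287 units in untreated obese muscle. A further Mgll probe set was below the filter and did not rise. It read 14.3, 89.7 and 11.5 units with pioglitazone, against 133, 42.8 and 28.6 units in untreated obese muscle. The first probe set of each gene kept its call with each array left out. The other Thrsp probe sets lost it with any of 4 arrays left out, and the other called Mgll probe sets with any of 2. In the list of lipid synthesis and storage genes, 3 of 20 tested members rose (Thrsp, Mgll and Scd) and 0 fell, with a median change of 0.81.

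Pck1, the cytosolic enzyme that feeds glycerol and glucose synthesis, had 2480, 590 and 1666 units with pioglitazone, against 106, 166 and 190 units in untreated obese muscle. It rose by 3.01 ± 0.54 (adjusted p = 0.0154), and its call ended when any of 4 arrays was left out (adjusted p up to 0.141). Aqp7, the glycerol channel of fat cells, had 1491, 711 and 857 units with pioglitazone, against 113, 378 and 369 units in untreated obese muscle (1.85 ± 0.36, adjusted p = 0.032), and its call ended when any of 3 arrays was left out (adjusted p up to 0.26). Replicate 1 was the highest of the pioglitazone arrays for both genes. The list of PPAR target genes had 2 of 25 tested members higher (Fabp4 and Pck1) and 0 lower, with a median change of 0.11. Members that did not pass include Pdk4, which inhibits pyruvate dehydrogenase, at 0.22 (adjusted p = 0.989), the uncoupling protein gene Ucp3 at -0.14 (0.990), and Angptl4, an inhibitor of lipoprotein lipase, at 1.55 (0.374). Angptl4 had 1443, 1428 and 1820 units with pioglitazone, against 225, 1061 and 562 units in untreated obese muscle, so its groups did not overlap.

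The receptor gene itself was among the probe sets that passed. Pparg had 234, 230 and 274 units with pioglitazone, against 31.4, 48.2 and 51.3 units in untreated obese muscle, a rise of 2.07 ± 0.40 (adjusted p = 0.0304). In lean muscle it averaged 274 ± 53.7 units (SD, n = 3), and pioglitazone minus lean was -0.13 (adjusted p = 0.976). The call was lost whichever of the 6 arrays was left out (adjusted p 0.0714 to 0.193). It also ended with a pseudocount of 80, with no filter and with the replicate block. With the 6 compared arrays alone the Pparg probe set was not tested. Its untreated obese signals were low, at 43.6 units on average, and without detection calls they cannot be placed against background. Both Ppard and Ppara, the genes of the other two PPAR receptors, were flat or too low: the tested Ppard probe set changed by -0.33 (adjusted p = 0.882), and Ppara was at 10.8 to 15.2 units with pioglitazone and 12.6 to 23.9 units in untreated obese muscle, below the filter. In the receptor and partner list, 1 of 9 tested members rose and 0 fell.

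Among the other genes that rose, Mgst1, a membrane glutathione transferase, had 5322, 1677 and 3892 units with pioglitazone, against 395, 366 and 389 units in untreated obese muscle (3.03 ± 0.61, adjusted p = 0.035). Por, the electron donor of cytochrome P450 enzymes, rose by 1.85 ± 0.33 (adjusted p = 0.0154) from signals near the low end of the arrays, with 223, 313 and 188 units with pioglitazone, against 69.5, 62.6 and 28.5 units in untreated obese muscle. The other tested Por probe set did not pass (0.47, adjusted p = 0.933). Fos, an immediate early transcription factor, had 867, 1021 and 985 units with pioglitazone, against 198, 352 and 266 units in untreated obese muscle, a rise of 1.77 ± 0.36 (adjusted p = 0.035). Its level in lean muscle was higher still, at 1481 units on average, and untreated obese minus lean passed the test (-2.36, adjusted p = 0.0194). A second Fos probe set did not pass (0.13, adjusted p = 0.997). B2m, the light chain of class I antigen-presenting molecules, rose least, by 0.79 ± 0.16 (adjusted p = 0.0368), with 1456, 1250 and 1796 units with pioglitazone, against 746, 907 and 914 units in untreated obese muscle. A second B2m probe set changed by 0.57 without passing (adjusted p = 0.408). The unnamed probe set rose by 1.03 ± 0.20 (adjusted p = 0.0327). The calls of Mgst1, Fos, B2m and the unnamed probe set each ended when any of 5 arrays was left out, and that of Por when any of 3 was (adjusted p up to 0.26, 0.256, 0.33, 0.26 and 0.11).

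The 3 genes that fell are in none of the gene lists, so the lists cannot show whether they share a role. Ins1 is a rat insulin gene of pancreatic beta cells that closely resembles Ins2. Its probe set read 61.4, 65.1 and 59.9 units with pioglitazone, against 342, 240 and 245 units in untreated obese muscle, and it fell by 1.83 on the log2 scale (SE 0.28, adjusted p = 0.0047). The deposited table has no detection calls, so whether these signals stood above background is not known. The water channel gene Aqp1, of capillary endothelium and red cells, had 913, 845 and 616 units with pioglitazone, against 1854, 2931 and 1698 units in untreated obese muscle. It fell by 1.40 (SE 0.23, adjusted p = 0.0058, and up to 0.0761 without pioglitazone replicate 3), while a second Aqp1 probe set had -0.61 (adjusted p = 0.71). The repressor gene Mxi1, an antagonist of Myc, had 275, 260 and 233 units with pioglitazone, against 481, 725 and 592 units in untreated obese muscle. It fell by 1.15 (SE 0.21, adjusted p = 0.0194), but a second probe set was at 0.00 (adjusted p = 0.99967) and the call ended when any of 5 arrays was left out. The next lowest p-values among negative changes belonged to Egr3, Art3, Slit3, Zbp1, Herc3, Wrap53 and Ccdc51. None of these passed, with changes of -0.98, -0.97, -1.74, -0.92, -0.57, -1.10 and -1.36 and adjusted p of 0.21 to 0.289.

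The 5' flanks of these genes were searched for the letters of the PPAR response element, because PPARgamma with RXR binds a direct repeat of AGGTCA spaced by 1 base. RefSeq promoters, 250 bases before to 50 after the transcription start on GRCr8, were found for 12 of the 17 named genes and not for Fabp4, Fabp5, Aqp7, Gpihbp1 or Fos. On both strands, the exact repeat was in 0.0538% of all 33469 promoters, and a looser form with any base at the fourth place of each copy was in 0.415%. Neither was in the 13 promoters of the 12 genes. The half-site AGGTCA, which is part of the repeat, was in 16.2% of all promoters and in those of Pck1 and Por. The promoters of these 2 genes are shown, with the half-site in capitals, together with that of Rbp7, the gene with the smallest p, which had none.
Rbp7 (chr5:165177350-165177649, minus strand, 5′ to 3′): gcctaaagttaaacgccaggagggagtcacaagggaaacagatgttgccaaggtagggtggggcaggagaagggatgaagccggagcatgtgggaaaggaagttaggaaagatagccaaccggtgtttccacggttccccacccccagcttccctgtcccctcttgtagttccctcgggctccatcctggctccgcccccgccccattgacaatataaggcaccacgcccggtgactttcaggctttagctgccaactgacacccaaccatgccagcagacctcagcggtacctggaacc
Pck1 (chr3:182348322-182348621, plus strand, 5′ to 3′): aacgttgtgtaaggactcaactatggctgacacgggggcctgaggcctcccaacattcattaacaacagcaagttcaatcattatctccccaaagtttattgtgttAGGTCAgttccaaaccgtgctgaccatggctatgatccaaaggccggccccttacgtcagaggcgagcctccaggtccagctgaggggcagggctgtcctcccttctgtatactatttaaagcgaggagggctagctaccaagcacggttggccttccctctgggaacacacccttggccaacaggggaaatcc
Por (chr12:26635760-26636059, minus strand, 5′ to 3′): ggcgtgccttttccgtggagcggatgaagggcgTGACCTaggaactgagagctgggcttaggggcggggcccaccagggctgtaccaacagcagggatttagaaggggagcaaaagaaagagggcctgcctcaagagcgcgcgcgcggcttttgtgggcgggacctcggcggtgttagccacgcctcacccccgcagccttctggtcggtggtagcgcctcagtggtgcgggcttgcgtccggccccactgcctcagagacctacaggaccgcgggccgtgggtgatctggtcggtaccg
A match here is a match of letters and not a bound site, and the absence of one covers this window alone.

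Fat cells lie between muscle fibres, so the genes of fat cells were followed array by array. Of 18 adipocyte genes listed, 15 were on the array, without Adipoq, Retn and Cidec by symbol. Their summed signal was 70242, 30552 and 40273 units with pioglitazone, against 8384, 13614 and 10853 units in untreated obese muscle. The sum was thus 4.12-fold higher on average, with no overlap (log2 difference 2.04, exact two-sided permutation test, p = 0.1, the smallest that 3 against 3 arrays can give over 20 splits). It lay between 30247 and 31473 units with rosiglitazone, 39049 and 107150 with troglitazone, 20274 and 52156 with AG035029, and 7822 and 8120 in lean muscle. In pioglitazone-treated adipose tissue the sum was 153560 to 165690 units. In liver it was 67369 to 74110 units with pioglitazone and 91648 to 100920 units in untreated obese rats, where Scd and Thrsp were high and Fabp4 averaged 19.9 and 10.4 units, so the sum is not specific to fat cells. Of the 12 members tested, 4 rose (Fabp4, Aqp7, Thrsp and Scd), 0 fell, and all 12 changes were above 0, with a median of 1.69. Over 1 probe set for each of 7030 genes, 44.6% of changes were above 0 and the median was -0.03. This list and the others were chosen with earlier results of these data known, so such shares are no independent test. On pioglitazone replicate 1, Fabp4 gave 20362 and Scd 19089 of the 70242 units in the sum.

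The other members of the list did not pass or were not tested. Cfd, the fat cell protease adipsin, had 2373, 811 and 1670 units with pioglitazone, against 557, 617 and 439 units in untreated obese muscle (1.44 ± 0.56, adjusted p = 0.669). Lep, the leptin gene, had 147, 15.9 and 20.3 units with pioglitazone, against 13.1, 25.2 and 47.2 units in untreated obese muscle, below the filter. Replicate 1 alone was high for Lep, and it was also the highest for Cfd. Plin1, the coat protein of fat cell lipid droplets, had 242, 191 and 153 units with pioglitazone, against 205, 103 and 117 units in untreated obese muscle (0.44, adjusted p = 0.967), so its groups overlapped. The insulin-regulated membrane protein gene Trarg1 had 1017, 402 and 524 units with pioglitazone, against 55.7, 88.7 and 108 units in untreated obese muscle. The retinol carrier gene Rbp4 had 1392, 268 and 1035 units with pioglitazone, against 12.7, 128 and 137 units in untreated obese muscle. The groups of both did not overlap, with changes of 2.61 and 3.04 that missed the threshold (adjusted p = 0.103 and 0.172). Cidea, a lipid droplet protein, had a change of 1.53 (adjusted p = 0.282), Adrb3 of 0.47 (0.903), Plin4 of 0.23 (0.941) and Nnat of 0.17 (0.991). Lipe was at 163, 56.2 and 306 units with pioglitazone, against 22.1, 86.1 and 48 units in untreated obese muscle, and Acvr1c stayed under 17 units, both below the filter. Summed over Cfd, Plin1 and Lep alone, the log2 difference was 1.30 (exact p = 0.1).

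**Figure D2:**
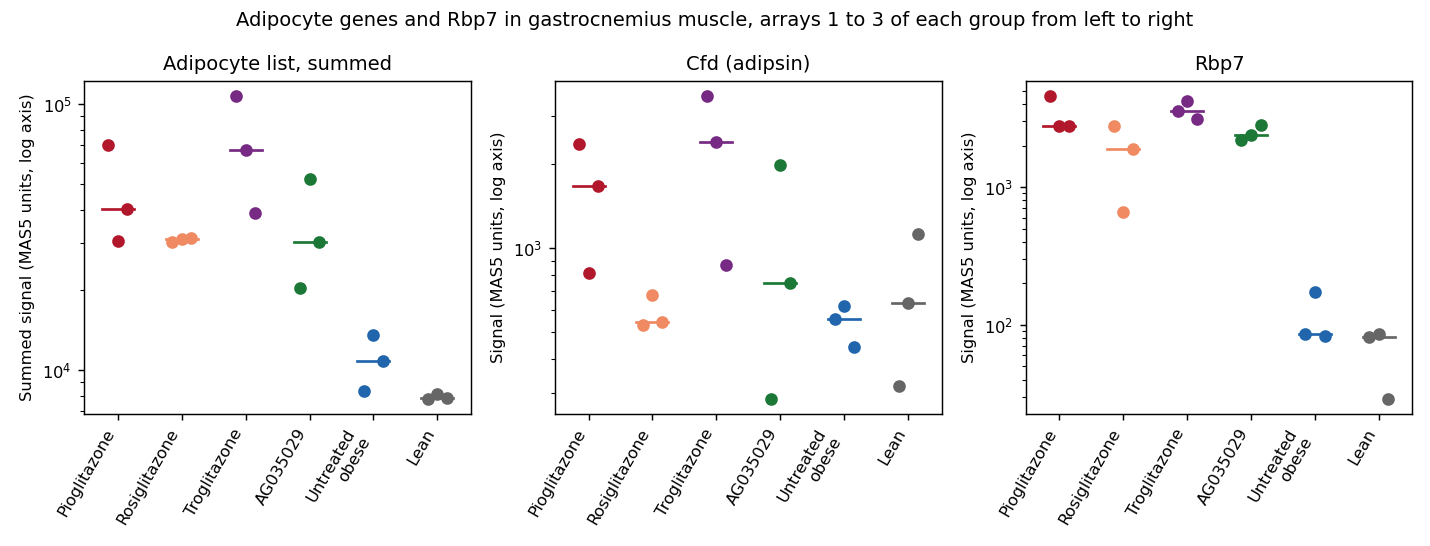
Summed signal of the adipocyte list, signal of Cfd and signal of Rbp7 in MAS5 units (log axes) for each muscle array, with replicates 1 to 3 of a group from left to right and a bar at the group median. Pioglitazone replicate 1 is the highest of its group in all 3 panels. For Rbp7 the 4 ligand groups lie above the untreated obese and lean groups, while for Cfd the arrays of all 4 ligand groups overlap with those of lean muscle.

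The pioglitazone arrays also differed among themselves. Of the 19 probe sets that rose, 14 were highest on replicate 1, 14 were lowest on replicate 2, and 12 had both, which is the order of the summed list, against 30.2%, 30.8% and 13.2% of all probe sets tested. Of the 12, 5 are themselves in the sum (Thrsp, Scd and Aqp7). The 12 also hold more than 1 probe set each of Thrsp and Mgll, so these genes are counted repeatedly. Exceptions in which replicate 1 was not the highest were Gpihbp1, Por, Pparg, Fos and B2m. With the log2 sum as a covariate, 0 of the 22 probe sets passed. That sum holds Scd, Fabp4, Thrsp and Aqp7 and does not overlap between the groups, so it and the treatment cannot be told apart by this fit. The Rbp7 estimate in it was 4.03 ± 0.68 (adjusted p = 0.0989).

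The gain in muscle was also set against the level of the same probe set in pioglitazone-treated adipose tissue. The difference of the mean muscle signals, as a percentage of the mean adipose signal, ran from 7.2 to 89.8% over the 19 probe sets, with a median of 16.6%. It exceeded 30% for 5 of them: Fos (89.8%), Fabp4 (72.5%), Rbp7 (68.9%), Scd (64.9%) and Gpihbp1 (38.9%). Thrsp lay between 15.9 and 23.3%, Fabp5 at 16.9%, Pck1 at 13.6%, Pparg at 14.2%, and Aqp7 at 7.25%. Over the 11 adipocyte probe sets that did not pass or were not tested, the gain ran from -0.41 to 9.6%, with Cfd at 7.82%, Rbp4 at 7.61%, Trarg1 at 6.91%, Plin1 at 4.62% and Lep at 0.817%. The call used the same muscle difference, so these ranges are not compared. What part of each gain came from fat cells was not tested.

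**Figure D3:**
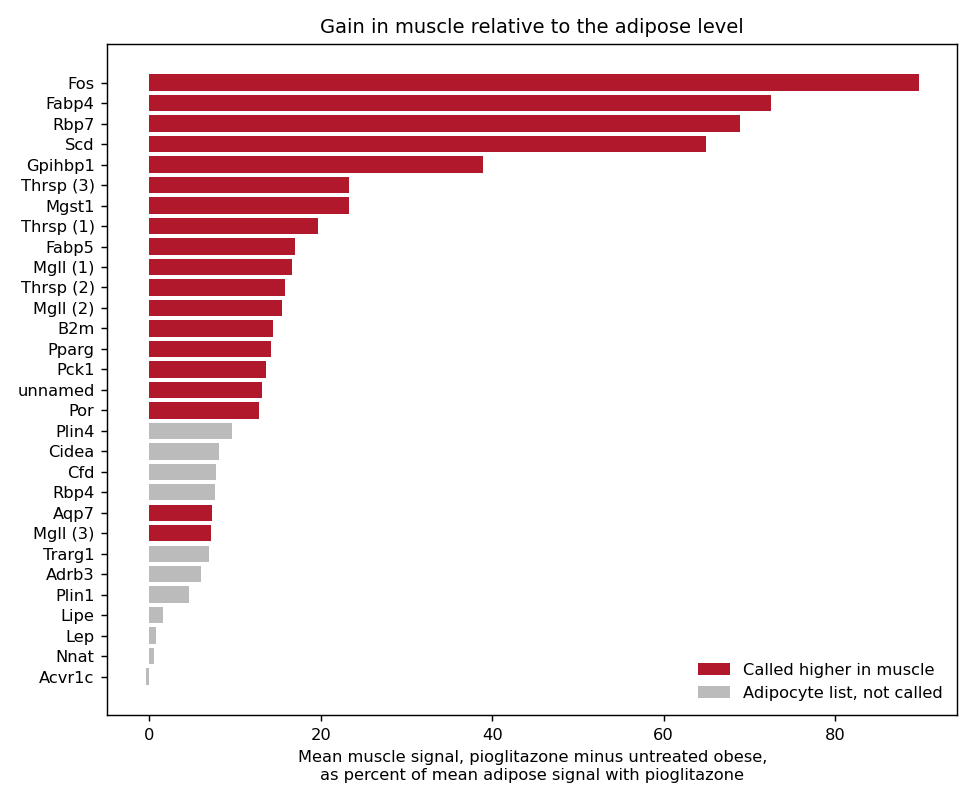
Difference of mean muscle signal, pioglitazone minus untreated obese, as a percentage of the mean signal of the same probe set in pioglitazone-treated adipose tissue. Red bars are the 19 probe sets that rose in muscle and grey bars are members of the adipocyte list that did not pass or were not tested. Colours follow the call, which used the same muscle difference, so red and grey are not to be compared. Fos, Fabp4, Rbp7, Scd and Gpihbp1 exceed 30%.

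Markers of other cell types moved less. Endothelial markers summed to 13194, 13091 and 10172 units with pioglitazone, against 7237, 9599 and 9368 units in untreated obese muscle, a log2 difference of 0.48 without overlap (exact p = 0.1). This list contains Gpihbp1, its only called member of 12 tested, and its median change was 0.17. Gpihbp1 gave 1282 units of the lowest pioglitazone sum, 10172, and 659 units of the highest untreated sum, 9599. The lack of overlap thus depends on this gene. The macrophage sum differed by 0.22 (exact p = 0.3), with 8368 to 10294 units with pioglitazone and 7150 to 9404 units in untreated obese muscle. The nerve and Schwann cell sum differed by 0.55 (p = 0.4), the blood cell sum by 0.10 (p = 0.8), the fibroblast and matrix sum by 0.05 (p = 0.8), the lymphocyte sum by -0.24 (p = 0.6), the brown fat sum by -0.02 (p = 1) and the muscle fibre sum by -0.09 (p = 0.7), all by the exact permutation test. Each of these sums overlapped between the groups. The brown fat sum was 31404 to 49374 units in untreated obese muscle, but 6258 to 7287 units in untreated obese adipose tissue. Whether it reports brown fat cells in muscle was not tested. The part of endothelial or other cells in the changes of Gpihbp1, Aqp1, Rbp7 and Fabp4 was not tested.

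No probe set of the energy metabolism lists passed. The fatty acid oxidation list had 0 of 25 tested members called in either direction and a median change of -0.06. The smallest p-values there belonged to Etfb, an electron carrier (-0.37, adjusted p = 0.846), and Acadm, the medium-chain acyl-CoA dehydrogenase (-0.43, 0.872). The citrate cycle and respiratory chain list had 0 of 59 called and a median of -0.04, with Cox6a1 at 0.62 (0.413) and Sdha at 0.42 (0.63) leading. The glycolysis and glycogen list had 0 of 26, and the pyruvate dehydrogenase list 0 of 12. Of the glucose uptake and insulin signalling list, 0 of 21 passed: Slc2a4, the insulin-responsive glucose transporter, had 4151, 4063 and 3760 units with pioglitazone, against 3288, 4491 and 4311 units in untreated obese muscle (0.00, adjusted p = 0.99967). Igf1 had 1088, 998 and 946 units with pioglitazone, against 622, 522 and 658 units in untreated obese muscle (0.74, adjusted p = 0.619). The median 95% interval of a change reached 0.52 to each side, without adjustment over all probe sets tested. The smallest change called in muscle was 0.79 (B2m), and larger ones, such as that of Angptl4, did not pass. With 3 arrays a group, changes above 0.52 in these lists could thus also go uncalled.

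Slow-fibre genes had 11 of 12 changes above 0, against 44.6% of all genes, and a median of 0.85, with 0 called. Their summed signal was 139380, 151770 and 95608 units with pioglitazone, against 38239, 195590 and 103190 units in untreated obese muscle. The groups overlapped (log2 difference 0.46, exact permutation p = 0.7), and the lowest sum was that of untreated obese replicate 1. That array was also low for Myl2, the slow and cardiac myosin light chain, with 15366, 15456 and 9829 units with pioglitazone, against 1884, 18484 and 8590 units in untreated obese muscle (0.98, adjusted p = 0.903). The same order held for the lactate dehydrogenase gene Ldhb and the calcium pump regulator Sln, whose changes of 1.36 and 1.56 did not pass (adjusted p = 0.73 and 0.669). The fast-fibre list had 0 of 15 called and a median of -0.07.

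Of the other lists, the immediate early genes had 1 of 20 tested members higher (Fos) and the interferon list 1 of 14 (B2m). Irf7, an interferon response factor, had 973, 1009 and 1130 units with pioglitazone, against 635, 329 and 438 units in untreated obese muscle without passing (1.16, adjusted p = 0.543). Cholesterol synthesis had 0 of 9 called, led by Insig1, which holds the SREBP pathway in check, with 1953, 624 and 1193 units with pioglitazone, against 471, 262 and 466 units in untreated obese muscle (1.51, adjusted p = 0.127). The circadian list had 0 of 12, with the clock gene Bmal1 at -1.02 (0.585). The peroxisome, ketone, branched-chain, glucocorticoid, heat shock, proteasome, cell cycle, antioxidant, calcium and creatine kinase lists also had no called member, and their medians lay between -0.09 and 0.32.

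**Figure D4:**
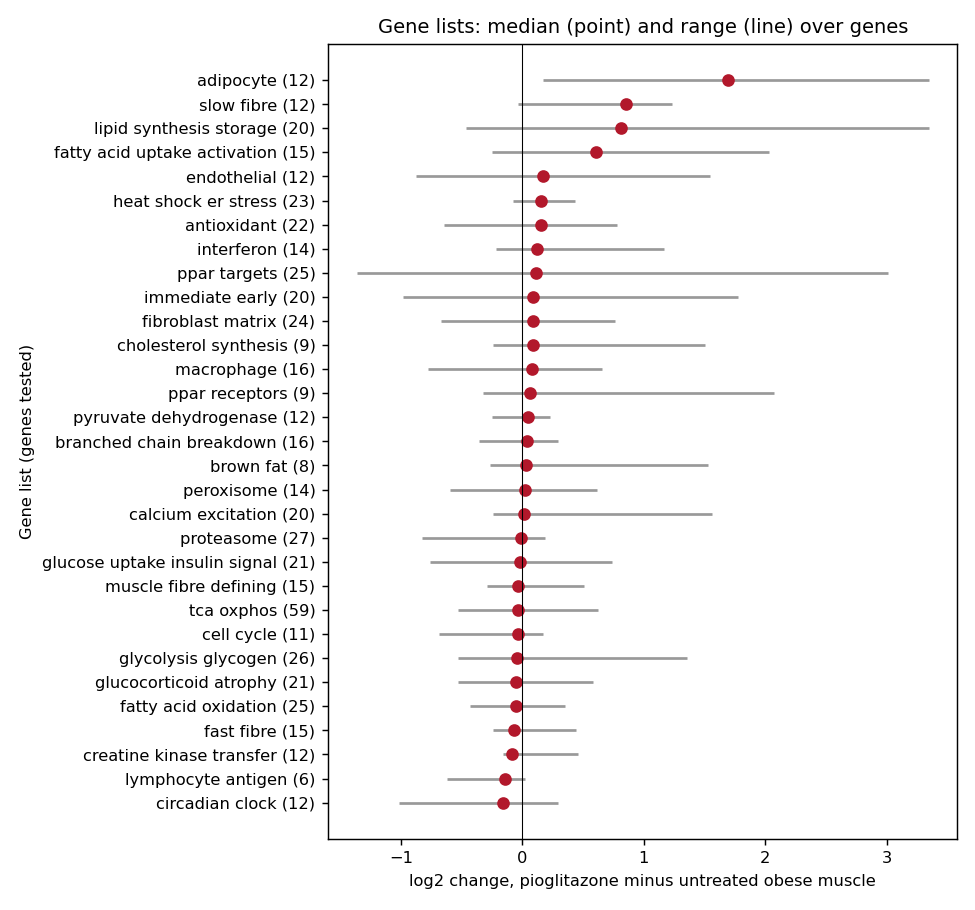
Median (point) and full range (line) of the log2 change, pioglitazone minus untreated obese muscle, over the tested genes of each list, with the number tested in parentheses. The adipocyte list has the highest median, 1.69, and the slow-fibre list follows at 0.85. The lists of fatty acid oxidation and of the citrate cycle and respiratory chain lie at -0.06 and -0.04.

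The other ligands were measured in muscle against the same 3 untreated arrays, so their values are given side by side without a count of shared calls. Against those arrays rosiglitazone had 3 called probe sets (0.0315%), troglitazone 67 (0.704%) and AG035029 11 (0.116%). Rbp7 averaged 3361 ± 1048 units with pioglitazone, 1774 ± 1065 in rosiglitazone muscle, 3636 ± 558 in troglitazone muscle, 2469 ± 325 in AG035029 muscle, 114 ± 50.7 in untreated obese and 65.3 ± 31.3 in lean muscle (SD, n = 3 each). Scd averaged 11425 ± 6964 units with pioglitazone, 6660 ± 2242 with rosiglitazone, 18738 ± 11341 with troglitazone, 7370 ± 5508 with AG035029, 988 ± 236 in untreated obese and 304 ± 64.4 in lean muscle (SD, n = 3 each). For both genes the pioglitazone mean lay between those of troglitazone and AG035029, within the spread of the arrays. Pparg averaged 246 ± 24.7 units in pioglitazone, 240 ± 22.6 in rosiglitazone, 268 ± 42.8 in troglitazone and 230 ± 152 in AG035029 muscle, against 43.6 ± 10.7 in untreated obese muscle.

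Ins1 averaged 62.1 ± 2.68 units in pioglitazone, 251 ± 44.1 in rosiglitazone, 252 ± 60.8 in troglitazone and 205 ± 57.6 in AG035029 muscle (SD, n = 3 each). Pioglitazone minus rosiglitazone was -1.71 (95% interval -2.30 to -1.12, adjusted p = 0.0352). Ly6e, a membrane protein gene induced by interferon, had 1120 to 1215 units with pioglitazone and 300 to 483 units with rosiglitazone, a difference of 1.47 (95% interval 0.96 to 1.97, adjusted p = 0.0352). These 2 were the probe sets called between pioglitazone and rosiglitazone, 0.021% of those tested, with 756 at an unadjusted p under 0.05. Adjusted over all 3 pairs together, neither passed (0.0754 for both), and both calls also ended without pioglitazone replicate 1, 2 or 3 (adjusted p up to 0.202 over the alternatives). No probe set was called between pioglitazone and troglitazone or between pioglitazone and AG035029 (limma, 0%), and 684 and 731 probe sets were below 0.05 before adjustment. The 95% intervals of these differences reached 0.52 to each side at the median, so the ligands are not shown to act alike, and doses and times are not known to match.

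Across tissues, the changes in muscle were set against those of pioglitazone in adipose tissue and liver, in 1 fit of all 54 arrays and 11520 probe sets. The labels do not say whether the same rats gave the 3 tissues, and the fit took all arrays as independent. It also used 1 estimate of spread over the tissues for each probe set. The standard error of the muscle change was thus 0.42 for Mgst1, against 0.61 in the muscle fit, and 0.48 for Mxi1, against 0.21. In this joint fit 68 probe sets passed for pioglitazone in muscle (0.59%). Muscle minus adipose tissue differed for 153 probe sets, 61 higher and 92 lower (1.33%), and muscle minus liver for 58, 46 higher and 12 lower (0.503%). Of the 22 probe sets called in muscle, 13 and 18 were among them, but these were chosen for a change in the same muscle arrays. In adipose tissue 2 of the 22 passed (3.69% of all did): Rbp7, which rose by 1.36, and Aqp1, which fell by 1.02. In liver 1 of the 22 passed, Por, which rose by 1.37 (0.451% of all did).

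**Figure D5:**
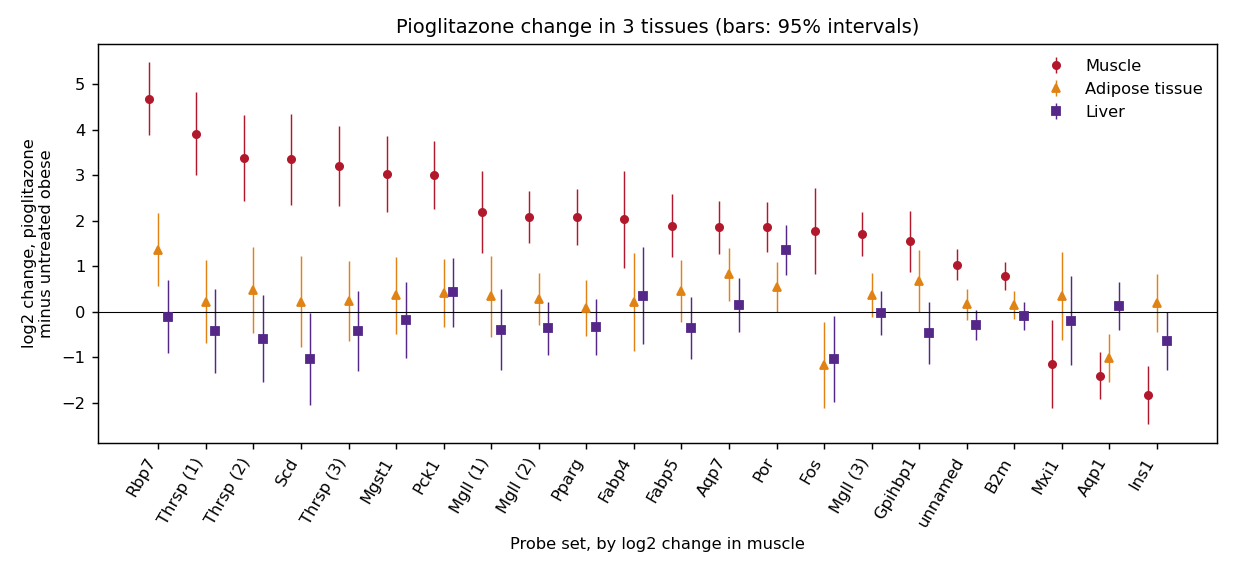
Log2 change of the 22 probe sets, pioglitazone minus untreated obese, in muscle (circles), epididymal adipose tissue (triangles) and liver (squares), from 1 fit of all 54 arrays with 95% intervals as bars. The muscle change of Rbp7 is 4.68, against 1.36 in adipose tissue and -0.11 in liver. Aqp1 is lower in both muscle and adipose tissue, and Fos is above 0 in muscle alone.

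In adipose tissue most of these genes were already high without the ligand. Rbp7 averaged 3361 units in pioglitazone muscle and 114 units in untreated obese muscle, and 4713 and 1848 units in the same groups of adipose tissue, a difference between tissues of 3.32 (adjusted p = 0.00058). In liver it was 76.1 units with pioglitazone and 79.6 units in untreated obese rats, and muscle minus liver was 4.79 (adjusted p = 8.6e-07). Scd in liver averaged 12744 units with pioglitazone and 26906 units in untreated obese rats, a change that did not pass, and muscle minus liver was 4.39 (adjusted p = 0.00046). Thrsp gave 3.69 against adipose tissue and 4.34 against liver in its first probe set (adjusted p = 0.00088 and 0.00011).

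The reverse pattern was led by Fabp3, the fatty acid-binding protein of heart and muscle. It averaged 10554 units in pioglitazone muscle and 11848 units in untreated obese muscle (change -0.00), but 13018 units with pioglitazone and 405 units in untreated obese adipose tissue, so muscle minus adipose tissue was -5.03 (adjusted p = 3.6e-07). The acyl-CoA dehydrogenase gene Acadl and the electron carrier gene Etfdh, both of fatty acid oxidation, were also lower in this difference, at -1.62 and -1.49. Their own muscle changes did not pass (-0.28 and -0.25). Nudt7, a peroxisomal enzyme of coenzyme A breakdown, had -1.87, with 948 units in pioglitazone muscle and 986 units in untreated obese muscle. Cyp1b1, a P450 enzyme, led the other direction at 2.52 (adjusted p = 3.5e-05). It changed by -0.20 in muscle and averaged 431 units with pioglitazone and 2976 units in untreated obese adipose tissue.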

How the data were processed

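RNA of each array was hybridised to an Affymetrix Rat 230A array. The authors deposited intensity values as MAS5 signals, per the submitters' processing notes, and every array has a 2% trimmed mean of 500. The deposited table has no detection calls. Of 15866 probe sets other than controls, 12783 have 1 gene symbol, 312 several and 2771 none. Tests used limma 3.58.1 in R 4.3.3 on log2(signal + 20). The muscle fit held 18 arrays (12 residual degrees of freedom) and probe sets above the 40th percentile of mean signal. The fit across 3 tissues held 54 arrays, taken as independent, and the labels do not say whether the same rats gave the tissues. Adjusted p-values are Benjamini-Hochberg over all probe sets tested, with a threshold of 0.05. Marker sums were compared by an exact two-sided permutation test.

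Same-numbered arrays did not deviate together (correlations -0.09, 0.08 and -0.05), so numbers were not taken as pairs. Named genes were the 12 largest changes in each direction among called genes, with falls filled to 10 by p, up to 4 called or 2 lowest-p members of each list, the adipocyte list with selected PPAR and fuel genes, and at most 6 genes each way where ligands or tissues differed. The members and the 34 lists were chosen with earlier results of these data known. Alternatives varied the pseudocount, filter, normalization, variance trend, array weights, replicate block, threshold, arrays and adipocyte signal. Nothing says that arrays are separate experiments beyond the pools of rats, so p-values measure the spread between pools.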

Additional observations from a re-analysis of the deposited data

Results flagged for a closer look

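The pioglitazone change differed between muscle and adipose tissue, by a test of the difference itself in limma, for 153 probe sets, with 61 higher and 92 lower in muscle. Among the genes with a higher change in muscle, muscle minus adipose tissue was 3.69 for Thrsp, 3.32 for Rbp7, 2.60 for Gatm, 2.52 for Cyp1b1, 1.60 for Pkp4 and 1.57 for Clu. Gatm makes the precursor of creatine, and its own change was 0.46 in muscle and -2.14 in adipose tissue. Among the genes with a lower change in muscle, the difference was -5.03 for Fabp3, -4.67 for Alb, -3.03 for Bdh1, -1.87 for Nudt7, -1.62 for Acadl and -1.49 for Etfdh. Bdh1 is a ketone body enzyme, with a change of -0.15 in muscle and 2.88 in adipose tissue. Of the 22 probe sets called in muscle, 13 were in this set, against 1.33% of all tested. They were chosen for a change in the same muscle arrays, so this count is no separate result.

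The change also differed between muscle and liver for 58 probe sets (0.503% of all tested), 46 higher and 12 lower in muscle. Of the 22, again chosen in the same muscle arrays, 18 were among them. Muscle minus liver was 4.79 for Rbp7, 4.39 for Scd, 4.34 and 3.96 for 2 Thrsp probe sets, 2.44 for Mgll and 1.91 for Cavin3, a caveola protein. It was -3.25 for Tmem201, -2.11 for Adarb1, -2.02 for Got1, -1.58 for Fbxo27, -1.55 for Fmo1 and -1.53 for Aqp1. Tmem201 had 35.7, 37.8 and 37.5 units in pioglitazone muscle, against 265, 137 and 208 units in untreated obese muscle, and was below the filter of the muscle fit.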

How the results depend on the processing

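The probe sets called in muscle were recomputed under 18 alternatives, and none of the 22 passed in all those run. Ins1, Por and Pparg had 16, as they were not tested with the 60th percentile filter or with the 6 compared arrays alone. With adipocyte signal as a covariate 0 were called higher and 0 lower, and for 6 of the 22 no other run ended the call. That signal does not overlap between the groups and holds Scd, Fabp4, Thrsp and Aqp7, so this fit cannot tell it apart from the treatment. In it 3 changes turned negative: -0.21 and -0.12 for Thrsp, itself part of the signal, and -0.00089 for Mgst1. Leaving out each array in turn gave 5 to 19 calls of higher and 1 to 3 of lower signal, and 6 probe sets (of Rbp7, Fabp5, Mgll, Thrsp, Gpihbp1 and Ins1) kept their call each time. Calls of higher signal numbered 11 without a variance trend and 9 at an adjusted p of 0.01, and calls of lower signal 1 with the 6 compared arrays alone. The replicate block gave 13 higher and 3 lower, and ended 6 of the 22 calls. Muscle calls numbered 68 in the fit of all tissues, against 22. Pioglitazone minus rosiglitazone, with 2 calls, had 0 with a pseudocount of 80, no filter, quantile normalization, the replicate block, the threshold of 0.01 or the covariate, and 1 with the 60th percentile filter, median centring or no trend, and 0 to 1 with arrays left out. Pioglitazone minus troglitazone, with 0 calls, had 1 with a pseudocount of 5, no trend or the replicate block, and 0 to 3 with arrays left out. Pioglitazone minus AG035029 had 0 to 1. Muscle minus adipose tissue, with 153 calls, had 254 with quantile normalization, 326 with array weights, 33 at 0.01 and 96 to 145 with arrays left out (96 without untreated obese replicate 2). Muscle minus liver, with 58, had 18 at 0.01 and 26 to 73 with arrays left out (26 without pioglitazone replicate 1). The adipocyte sum's log2 difference of 2.04 was 1.30 over Cfd, Plin1 and Lep alone and 1.71 to 2.31 with arrays left out. The causes of these shifts were not tested, and low signals cannot be placed against background without detection calls.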

Other observations

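Heat shock and endoplasmic reticulum stress genes, which encode chaperones, had 20 of 23 changes above 0 with 0 called and a median of 0.15, where 44.6% of all genes were above 0 with a median of -0.03. Circadian clock genes had 10 of 12 changes below 0 with 0 called and a median of -0.16. Ly6e, set apart between pioglitazone and rosiglitazone, had 1120, 1183 and 1215 units in pioglitazone muscle, against 698, 466 and 660 units in untreated obese muscle, and did not pass in that comparison (0.95 ± 0.24, adjusted p = 0.219). The nerve and Schwann cell list had 3 of 4 changes above 0 with 0 called and a median of 0.56.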
